A study of Mus musculus with 15 samples.

Results

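The troponins are the calcium-sensing subunits of the thin filament of striated muscle. The 7 genes described here, Tnnc1, Tnnc2, Tnnt1, Tnnt2, Tnnt3, Tnni1 and Tnni2, were chosen by gene symbol after a large difference of Tnnc1 between treated and GP cultures at day 3 was known from these same arrays. They were measured by 9 probe sets of 12422 other than controls, and the array named 8251 genes in all through probe sets with a single symbol. Every probe set is described apart, without a filter on signal.

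RNA came from MC3T3 clone 1b, a line from mouse calvaria that serves as an osteoblast precursor, and was measured on 15 single-colour arrays. Cultures labelled GP/AA/BMP-2, called treated here, were given bone morphogenetic protein 2 (BMP-2), a bone-inducing growth factor, and ascorbic acid (AA), a cofactor of collagen maturation, on top of beta-glycerol phosphate (GP), a phosphate source. They were taken at days 1 and 3, cultures with GP alone at days 1 and 3, and cultures in control medium at day 0. Each group held 3 arrays, numbered by preparation (prep) from 1 to 3. All cultures were of a single clone, AA and BMP-2 were always added together, and GP and time changed together between day 0 and day 1. The labels do not say whether preps were separate cultures, so the spread between them may be technical.

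A troponin complex has 3 parts. Troponin C binds calcium, troponin I holds actin and myosin apart at rest, and troponin T ties the complex to tropomyosin. Tnnc1 encodes the troponin C of heart and slow skeletal muscle and Tnnc2 that of fast skeletal muscle. Tnnt1, Tnnt2 and Tnnt3 encode the slow skeletal, cardiac and fast skeletal troponin T, and Tnni1 and Tnni2 the slow and fast skeletal troponin I. Troponin T and troponin I genes lie in neighbouring pairs in mammalian genomes. In the mouse assembly GRCm38.p6, Tnni1 and Tnnt2 lay on chromosome 1 with 1 coding gene, Lad1, between them, and Tnni2 and Tnnt3 on chromosome 7 with 1 coding gene, Lsp1, between them. Tnnt1 lay on chromosome 7 beside Tnni3, which encodes cardiac troponin I, with 0 coding genes between, while Tnnc1 was on chromosome 14 and Tnnc2 on chromosome 2.

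The arrays fell apart by prep before they did so by group: on the first principal component, with 33% of the variance, prep 3 arrays scored 26 to 41, and arrays of preps 1 and 2 scored -26.9 to -0.52. One array, GP day 3 prep 3, had a 3' to 5' ratio of actin signals of 2.11, where the rest had 1 to 1.34. Differences were read within preps, and the fit that gave the p-values held the prep as a block. Neither step removes a fault of 1 array, so GP day 3 prep 3 stays in the prep 3 differences that use it. Of 8 defining osteoblast genes on the array, Col1a1, the main bone collagen gene, had intensities of 6727.4 to 11861.5 and Sparc, a bone matrix glycoprotein gene, 2156.3 to 3770.6. Others were dim on many arrays. Alpl, alkaline phosphatase, had a median of 33.4 (10.2 to 970.9) over all arrays. Pth1r, a parathyroid hormone receptor gene, had a median of 8.6 with 1 array at the floor. Ibsp, bone sialoprotein, had a median of 6.6 with 3 arrays at the floor. Their signal differed by group: in treated cultures at day 3 Alpl, Pth1r and Ibsp averaged 630.4, 202.7 and 86.6. In GP cultures at day 3 they averaged 24.97, 6.433 and 7.133. Their day 1 means were also higher in treated than in GP cultures.

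The groups stood apart most for 2 troponin probe sets, that of Tnnc1 and 1 of the 2 probe sets of Tnnt1. Both were lower in treated than in GP cultures at both days and higher in GP cultures at day 3 than at day 1, in 3 of 3 preps each. For Tnnc1 (101063_at) the intensities were 5.2, 3.0 and 2.6 in treated cultures at day 3 (preps 1, 2 and 3), against 201.0, 400.2 and 164.1 in GP cultures at day 3. The groups did not overlap, and the lowest GP value was far above the highest treated value. The prep 3 treated value lay under 2.8, the 10th percentile of all values, to which lower values were set before log2 was taken. At day 1 the intensities of Tnnc1 were 7.5, 24.4 and 3.4 in treated cultures, against 30.4, 73.6 and 41.3 in GP cultures. In control medium at day 0 they were 90.1, 72.4 and 69.9. GP cultures at day 3 were thus the highest group and treated cultures at day 3 the lowest.

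**Figure D1:**
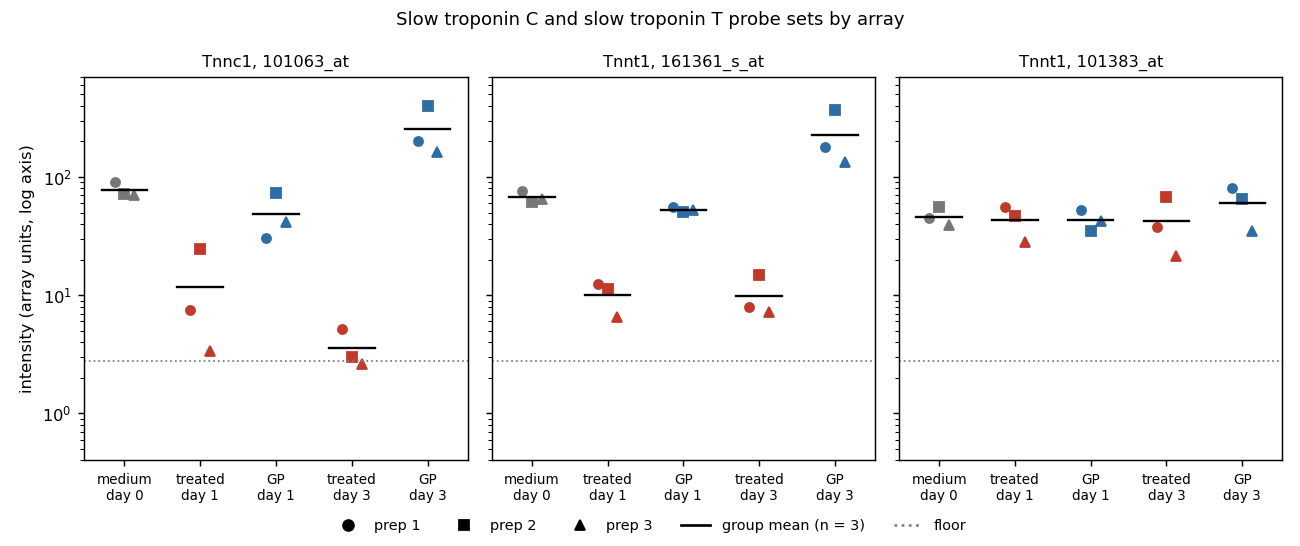
Intensity (array units, log axis) of Tnnc1 and of both Tnnt1 probe sets on all 15 arrays, by group, with a symbol for each prep, a bar for the group mean (n = 3) and a dotted line for the floor of 2.8. Tnnc1 and the Tnnt1 probe set 161361_s_at are highest in GP cultures at day 3 and low in treated cultures, and the Tnnt1 probe set 101383_at stays between 21.4 and 80.1 throughout.

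Ordered by mean intensity, Tnnc1 stood at 3.6 ± 1.4 in treated cultures at day 3, 11.8 ± 11.1 in treated cultures at day 1, 48.4 ± 22.5 in GP cultures at day 1, 77.47 ± 11.01 in medium at day 0 and 255 ± 127 in GP cultures at day 3 (SD, n = 3 arrays each). Values of both treated groups overlapped, as did those of GP cultures at day 1 and medium at day 0. The other neighbours in this order did not overlap.

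The Tnnt1 probe set 161361_s_at had the same order of groups. Its intensities were 7.9, 14.7 and 7.2 in treated cultures at day 3, against 180.3, 368.9 and 134.9 in GP cultures at day 3. At day 1 they were 12.4, 11.2 and 6.6 in treated cultures, against 55.5, 50.9 and 52.4 in GP cultures, and in medium at day 0 they were 75.6, 61.9 and 65.1. No value lay at the floor, and the values of treated cultures overlapped between the days but with no other group.

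The second Tnnt1 probe set, 101383_at, did not set the groups apart in this way. It read 37.6, 67.6 and 21.4 in treated cultures at day 3, against 80.1, 65.1 and 34.9 in GP cultures at day 3, and 55.6, 46.5 and 28.2 in treated cultures at day 1, against 52.6, 35.2 and 42.5 in GP cultures at day 1. In medium it read 44.6, 55.4 and 39.0, and the values of neighbouring groups in its order overlapped throughout. The probe sets of Tnnt1 thus disagreed. The platform annotation gave a transcript accession for 101383_at and none for 161361_s_at, whose suffix marks probes that can be shared with other transcripts. Which transcripts each probe set reads was not tested, so the pattern is given here for the probe set and not for the gene.

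At day 3 the within-prep log2 differences of treated from GP cultures were -5.27, -7.06 and -5.87 for Tnnc1, with a mean of -6.07 ± 0.53 (SE of the limma fit). For Tnnt1 161361_s_at they were -4.51, -4.65 and -4.23, with a mean of -4.46 ± 0.34. These are the values for which the family was chosen, so they are a description and carry no test. The size of the Tnnc1 difference rests on treated values near the floor: with the floor at the 25th percentile, 9.3, it was -4.67, and at the 60th percentile, 78.9, it was -1.58. Those of 161361_s_at were -4.26 and -1.40 in the same fits. Of all 12422 probe sets, 3.32% were lower and 3.39% higher in treated cultures at day 3 with a limma adjusted p under 0.05 (Benjamini-Hochberg), and by that rule 2 of the 9 troponin probe sets, Tnnc1 and Tnnt1 161361_s_at, counted as lower and 0 as higher. Since this is the difference that led to the choice, nothing is read from that count. Treated and GP values lay apart without overlap in 2 troponin probe sets that were lower and 1, of Tnnt3, that was higher, where 7.21% and 8.31% of all probe sets did so.

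**Figure D2:**
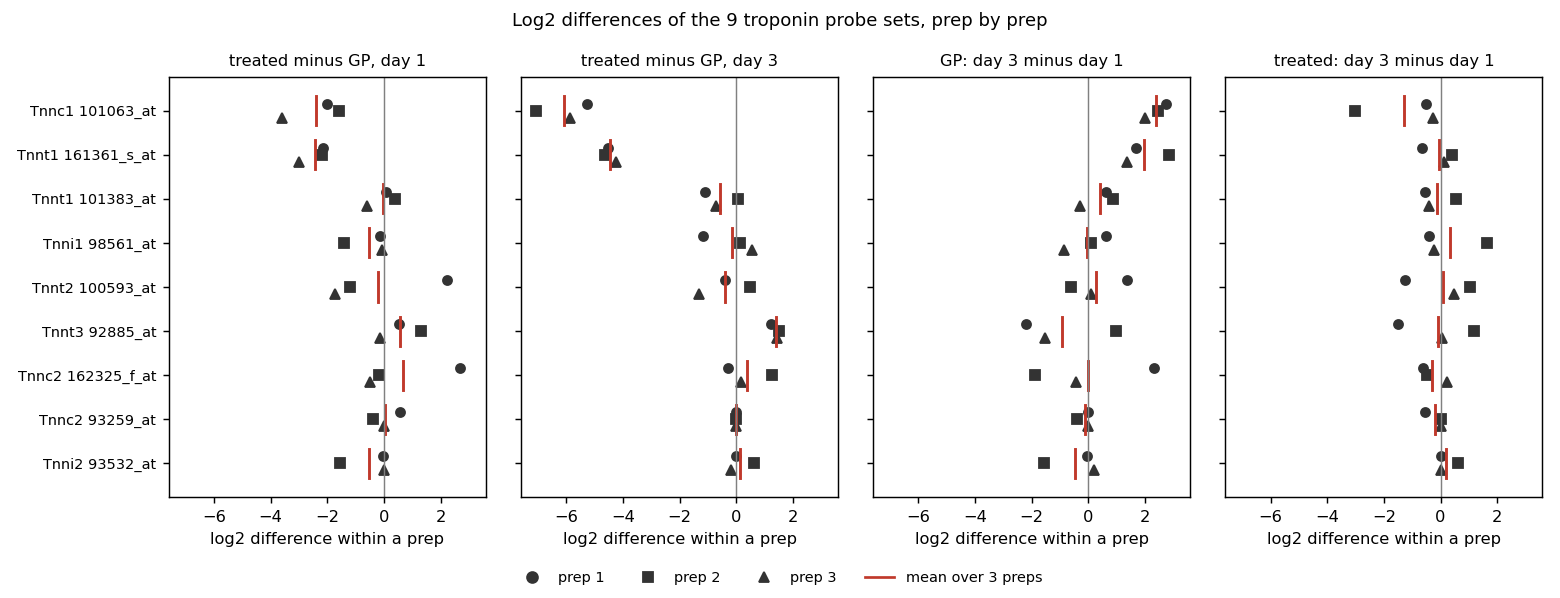
Log2 differences within preps for the 9 troponin probe sets in 4 comparisons, with a symbol for each prep and a red bar for the mean over 3 preps. Tnnc1 and Tnnt1 161361_s_at lie left of 0 in each prep for treated minus GP at both days and right of 0 for GP at day 3 minus day 1.

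The day 1 comparison asked whether the 2 low signals were already there after a day of treatment. Tnnt1 161361_s_at fell, with log2 differences of -2.16, -2.18 and -2.99 in preps 1, 2 and 3 and a fitted change of -2.45 ± 0.34 (SE), or 5.45 times lower in treated cultures (limma adjusted p = 0.00719, and 0.025 without the prep block). Tnnc1 differed by -2.02, -1.59 and -3.60, a fitted -2.41 ± 0.53, lower in 3 of 3 preps, and this did not pass the threshold (limma adjusted p = 0.0521, and 0.156 without the block). Of 9 troponin probe sets 1 fell and 0 rose, against 1.09% and 0.765% of all probe sets. Values did not overlap for 3 lower troponin probe sets, the third being Tnni1, and for 0 higher ones, where 6.68% and 6.87% of all probe sets did so. The Tnnt1 change held when any 1 of the 6 arrays was left out (limma adjusted p = 0.0193 to 0.0436) and did not pass without any whole prep (0.114 to 0.173). With the floor at 78.9 every day 1 value of both probe sets was at the floor and no difference was left. The Tnnc1 difference passed in 1 of 6 fits that left out an array, without the treated day 1 prep 2 array, at -3.02 (adjusted p = 0.0354, against up to 0.221 in the others), and in 0 of 3 that left out a prep (0.221 to 0.344). It ran down to -1.88 without the treated day 1 prep 3 array. Over all arrays it did not pass without the mean trend (0.0777) or in a fit of the 2 groups alone (0.256), and it passed with the signal filter (0.0155), the floor at 9.3 (0.0429), quantile normalization (0.044), median scaling (0.0476) and array weights (0.0287).

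Over time both probe sets are described with no test, because the day 3 arrays also entered the difference for which the family was chosen. In GP cultures Tnnt1 161361_s_at was higher at day 3 than at day 1 by 1.70, 2.86 and 1.36 log2 units in preps 1, 2 and 3, a fitted 1.97 ± 0.34 or 3.93-fold. Tnnc1 differed in the same comparison by 2.73, 2.44 and 1.99, a fitted 2.39 ± 0.53. Values of the days did not overlap for these 2 probe sets, and 0 others were higher or lower without overlap, where 5.16% of all probe sets were higher and 5.08% lower in that way. By the limma rule 1 of the 9 troponin probe sets, Tnnt1 161361_s_at, counted as higher and 0 as lower, where 0.161% of all probe sets were higher and 0.564% lower (0.725% in all). It no longer counted when any 1 of the 6 arrays was left out, or without the prep block, and nothing is read from the count.

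In treated cultures between the same days Tnnt1 161361_s_at differed by -0.65, 0.39 and 0.13, a fitted -0.04 ± 0.34. Tnnc1 differed there by -0.53, -3.02 and -0.28, a fitted -1.28 ± 0.53, and without prep 2 by -0.40. By the limma rule 0 of 9 troponin probe sets counted as changed, and of the 8 other than Tnnc1 0 had an unadjusted p under 0.05, where 1.51% of all probe sets were called, 0.837% higher and 0.676% lower. Values overlapped for all 9, where 5.98% of all probe sets were higher and 4.58% lower without overlap.

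From medium at day 0 to GP at day 1 limma called 0 of 9 troponin probe sets, with 1, of Tnni1, at an unadjusted p under 0.05, against 0.306% of all probe sets called. Tnnc1 differed by -1.57, 0.02 and -0.76, a fitted -0.77 ± 0.53 (adjusted p = 0.853), and Tnnt1 161361_s_at by -0.45, -0.28 and -0.31, a fitted -0.35 ± 0.34 (adjusted p = 0.912). Values of 161361_s_at were lower in each GP day 1 array than in any medium array. Values did not overlap for that 1 lower and for 1 higher troponin probe set, where 3.74% and 4.77% of all probe sets did so. The 0.306% called were 0.29% higher and 0.0161% lower.

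Without the prep block the counts of called troponin probe sets were 1, 2, 0, 0 and 0 in treated against GP at day 1, the same at day 3, GP day 1 against medium, GP day 3 against GP day 1, and treated day 3 against treated day 1. The shares of all probe sets called were then 0.507%, 1.95%, 0.113%, 0.298% and 0.105%. With the signal filter the counts were 2, 2, 0, 2 and 0, where 4.98%, 14.2%, 0.724%, 1.85% and 3.96% of the 7454 probe sets past it were called. Troponin counts of comparisons with day 3 arrays are descriptions here too, and nothing is read from them.

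The fast skeletal troponin C gene Tnnc2 had 2 probe sets. Probe set 93259_at was at the floor on 13 of 15 arrays and never above 4.1. Probe set 162325_f_at, whose suffix marks probes similar among members of a gene family, ranged from 7.3 to 47.5 and averaged 26.6 ± 4.31 in treated cultures at day 3, against 23.4 ± 14.0 in GP cultures at day 3 (SD, n = 3). No contrast gave a call for either. Values of 162325_f_at overlapped between the groups of every comparison.

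The cardiac and fast troponin T genes had low signals. Tnnt2 ranged from 2.2 to 23.6, with 1 array at the floor, and its day 1 difference turned sign between preps, at 2.24, -1.18 and -1.72 (fitted -0.22 ± 0.77, limma adjusted p = 0.97). Tnnt3 ranged from 1.3 to 20.6, also with 1 array at the floor. At day 3 it read 7.2, 15.8 and 14.0 in treated cultures, against 3.1, 5.5 and 5.2 in GP cultures, without overlap, a log2 difference of 1.39 ± 0.68 that was higher in 3 of 3 preps and was not tested. At day 1 it read 20.6, 6.9 and 13.6 in treated cultures, against 14.4, 1.3 and 15.1 in GP cultures, and the groups overlapped.

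Neither skeletal troponin I gene was called in any contrast. Tnni1, of slow muscle, was read at 44.9, 105.2 and 56.3 in treated cultures at day 3, against 101.3, 96.8 and 37.9 in GP cultures at day 3. At day 1 it was read at 60.1, 34.1 and 65.9 in treated cultures, against 66.5, 90.1 and 69.0 in GP cultures, without overlap, differing by -0.54 ± 0.43 on the log2 scale (limma adjusted p = 0.685). Medium at day 0 had its lowest mean, 39.2 ± 12.5 (SD, n = 3), and GP day 1 cultures were higher than medium by 0.98 ± 0.43 without overlap (adjusted p = 0.705). Tnni2, of fast muscle, was at the floor on 10 of 15 arrays and reached 8.2 at most. The slow troponin I gene thus had intensities of 25.9 or more on every array, with treated and GP values that overlapped at day 3.

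**Figure D3:**
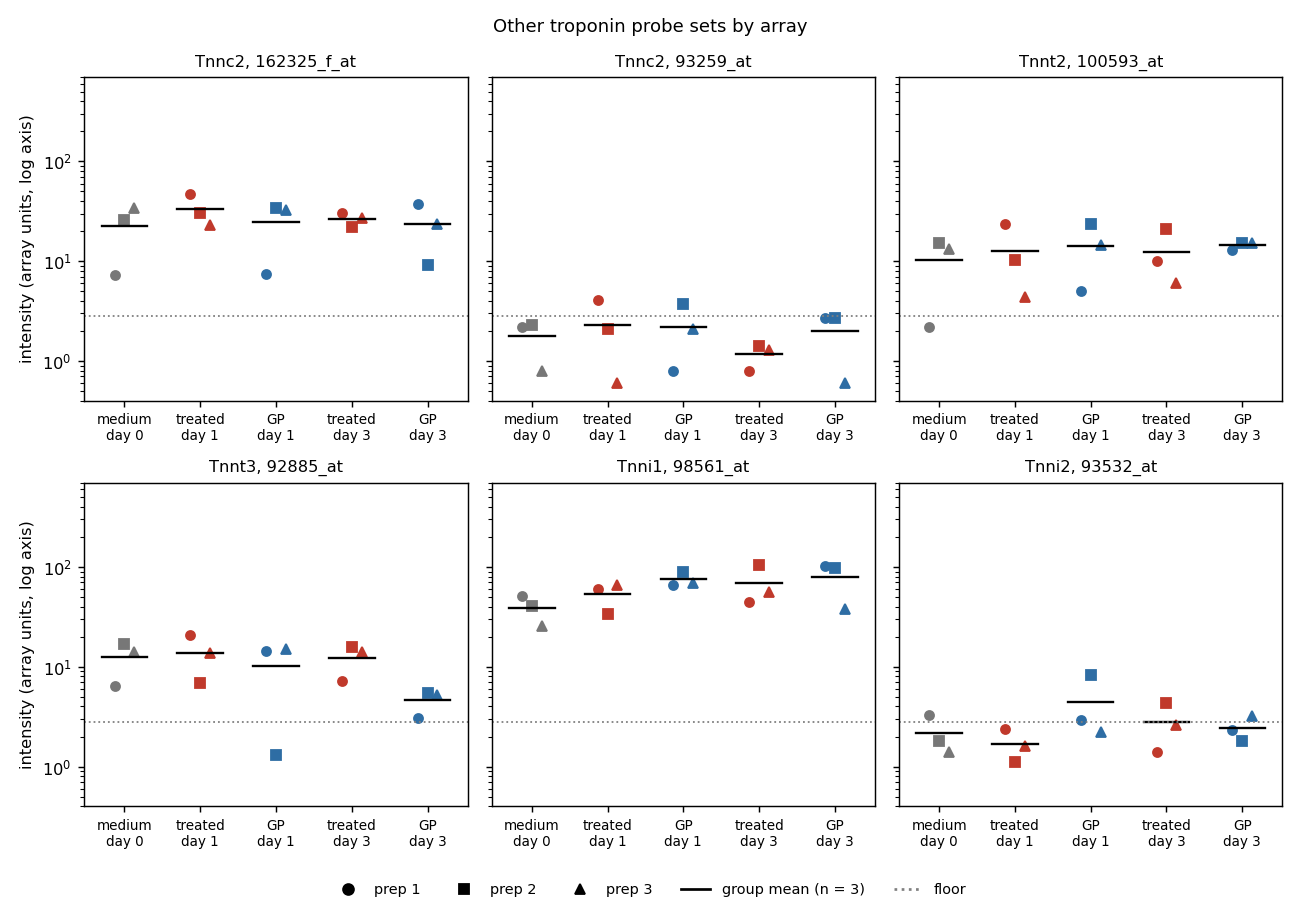
Intensity (array units, log axis) of the other 6 troponin probe sets on all 15 arrays, drawn as for the slow troponins. Probe sets 93259_at of Tnnc2 and 93532_at of Tnni2 lie mostly at or under the floor of 2.8, and the Tnni1 probe set lies between 25.9 and 105.2 with overlapping treated and GP values at day 3.

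With a filter on mean signal at the 40th percentile of the probe set means, 25.4, 5 of the 9 probe sets would have been kept: those of Tnnc1, Tnni1 and Tnnt1 and the probe set 162325_f_at of Tnnc2. The arrays gave no detection calls here, so a low intensity is a low signal and does not show absent RNA.

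Cardiac troponin I, Tnni3, the neighbour of Tnnt1, was not among the chosen genes and was read as a gene of a thin and thick filament list. Its intensities were 4.3, 5.0 and 1.9 in treated cultures at day 3, against 28.3, 30.6 and 9.0 in GP cultures at day 3. It fell at day 3 by 2.34 ± 0.49 on the log2 scale, lower in 3 of 3 preps (limma adjusted p = 0.0192). That call was lost without the block (0.149), with the floor at 9.3 (0.115, log2 difference -1.11) and in 4 of 6 fits that left out 1 array. Leaving out a whole prep lost it in 3 of 3 fits. Treated against GP at day 3 is also the comparison that led to the choice of troponins, so nothing is read from the call. At day 1 Tnni3 read 4.3, 3.8 and 2.5 in treated cultures, against 14.5, 11.2 and 2.2 in GP cultures (-1.10 ± 0.49, adjusted p = 0.341).

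Over the 15 arrays, with prep means removed, the log2 signal of Tnnt1 161361_s_at had a Pearson correlation of 0.95 with that of Tnnc1, and that of Tnnt1 101383_at one of 0.43. The other members lay between -0.57 (Tnnt3) and 0.11 (Tnnt2). These are descriptions: the arrays share groups, so a few group means set the value. Among 6745 named probe sets past the signal filter, 7 had a higher correlation with Tnnc1 than Tnnt1 161361_s_at. The 6 highest were Slc25a36, a mitochondrial nucleotide carrier gene (0.99), both probe sets of Cpxm2, a carboxypeptidase-like gene (0.97 each), S100a1, a calcium-binding protein gene of heart muscle (0.96), Col4a1, a basement membrane collagen gene (0.96), and Txnip, which encodes an inhibitor of thioredoxin (0.95). With prep means kept, the value of Slc25a36 was 0.47. Cpxm2 (102227_g_at) had 39.1 ± 18.0 intensity units in treated cultures at day 3, against 206 ± 100 in GP cultures at day 3, while Slc25a36 had 238 ± 58.1 against 343 ± 78.2 (SD, n = 3). The lowest correlations were those of Pold2, a DNA polymerase subunit gene (-0.95), Sac3d1 (-0.94) and Cdt1, a replication licensing gene (-0.94).

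**Figure D4:**
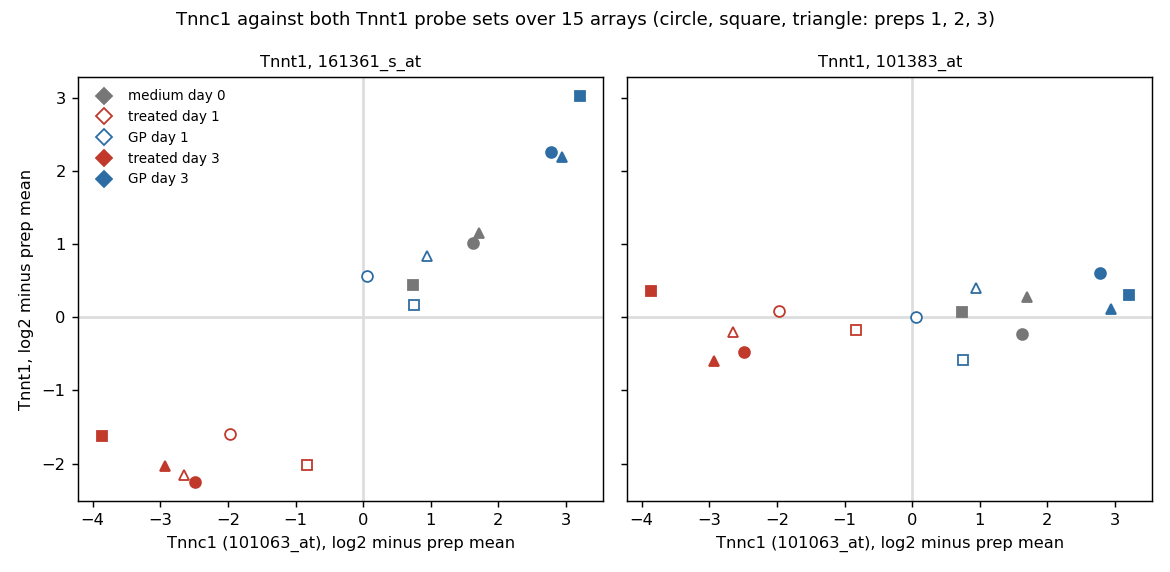
Log2 intensity of both Tnnt1 probe sets against that of Tnnc1 on 15 arrays, each with its prep mean taken off, with colours for groups and symbols for preps. For 161361_s_at the GP day 3 arrays lie at the upper right and the treated arrays at the lower left. For 101383_at the points span a narrower vertical range, with treated arrays on both sides of 0.

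The promoters of Tnnc1 and Tnnt1 are shown because the signal of Tnnt1 161361_s_at moved with that of Tnnc1. The signal of Tnnt1 101383_at followed less closely, with a correlation of 0.43. Each window holds the 250 bases before the annotated start, from RefSeq on GRCm38.p6, written 5′ to 3′ along the gene. Capitals mark E-boxes (CANNTG), the sites of basic helix-loop-helix factors such as MyoD, and MCAT elements (CATTCC or its complement GGAATG), the sites of TEAD factors in muscle promoters. The first lies at chr14:31208062-31208311 on the plus strand and the second at chr7:4515976-4516225 on the minus strand.
Tnnc1: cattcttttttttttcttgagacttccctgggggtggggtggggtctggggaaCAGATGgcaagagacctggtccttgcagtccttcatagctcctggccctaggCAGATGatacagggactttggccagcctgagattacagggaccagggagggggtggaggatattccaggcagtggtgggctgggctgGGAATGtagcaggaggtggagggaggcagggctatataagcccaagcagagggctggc
Tnnt1: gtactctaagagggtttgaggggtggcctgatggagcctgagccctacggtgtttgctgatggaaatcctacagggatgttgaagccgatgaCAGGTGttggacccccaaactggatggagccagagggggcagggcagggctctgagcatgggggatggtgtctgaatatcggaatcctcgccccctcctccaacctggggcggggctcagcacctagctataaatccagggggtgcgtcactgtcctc

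Both strands were searched, and no match in these windows overlapped another. Tnnc1 had 2 E-boxes, both CAGATG, and 1 MCAT element, and Tnnt1 had 1 E-box, CAGGTG, and 0 MCAT elements. Among 32851 windows of the same length 66.2% held an E-box and 12.6% an MCAT element. The GGCGCC core of BMP response elements, in 9.59% of all windows, the CArG box, in 1.47%, and the MEF2 box, in 2.92%, were in neither. Windows of Tnnc2, Tnnt2 and Tnni1 also held E-boxes, and 1 window of Tnnt2 held an MCAT element.

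Other genes of muscle were read from 6 lists. These were drawn up with earlier results of these data known, so their calls and shares are descriptions and not independent tests. The lists held 99 genes on the array, with 1 probe set each: thick and thin filament, Z-disc and M-band, excitation and calcium handling, myogenic and cardiac regulators, smooth muscle contractile genes, and EF-hand relatives of troponin C. In treated against GP cultures at day 1, 1 of the 99 passed in limma, or 1.01%, against 1.85% of all probe sets. At day 3 7 passed, or 7.07%, against 6.71%, so the share was near that of all probe sets.

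At day 3 the thick and thin filament list had 1 of 22 genes lower, Tnni3, and 0 higher, with a median log2 difference of 0.22, against 0.00 over all probe sets. The Z-disc and M-band list had 1 of 16 lower, Fhl1, a LIM protein gene of muscle (-0.99 ± 0.22, limma adjusted p = 0.0261, and 0.732 without the block), and 0 higher (median -0.36). That call was lost in 5 of 6 fits that left out an array and held without treated prep 1. The Fhl1 call was also lost in 3 of 3 fits that left out a whole prep. In the excitation and calcium handling list and the smooth muscle list limma called 0 of 18 and 0 of 13 genes at day 3, with medians of -0.14 and -0.10. Calls among the regulators were those of Id genes, whose proteins bind and inhibit helix-loop-helix factors such as MyoD. Id3 rose by 3.26 ± 0.34 (adjusted p = 0.000879) and Id2 by 3.15 ± 0.69 (0.0231), and Id4 fell by 2.49 ± 0.23 on the log2 scale (0.000716), and these made up the 3 called of 21 regulators. The Id2 call held in 2 of 6 fits that left out an array, those without prep 3 of either group, and its log2 difference ran from 2.53 without treated prep 1 to 4.25 without treated prep 3. The calls of Id3 and Id4 held in all 6. Of 3 fits that left out a whole prep, the calls of Id2 and Id3 were lost in 2 each and that of Id4 in 1. Of 9 EF-hand relatives 2 fell, S100a1 at -0.96 ± 0.15 (adjusted p = 0.00518, and 0.285 without the block) and S100a4 at -0.64 ± 0.13 (0.0161, and 0.578 without the block), of which S100a4 did not pass without GP prep 2 or GP prep 3. Both S100 calls were lost in 3 of 3 fits that left out a whole prep.

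At day 1 the 1 call was Id3, higher by 1.79 ± 0.34 (limma adjusted p = 0.0282, and 0.131 without the block), and it was lost when any 1 of 6 arrays was left out. In GP cultures at day 3 against day 1, 2 of the 99 passed, or 2.02%, against 0.725% of all probe sets: Id3 fell by 2.13 ± 0.34 on the log2 scale (0.017, and 0.0863 without the block) and Myl9, a smooth muscle myosin light chain gene, rose by 0.64 ± 0.10 (0.0135, and 0.409 without the block). The Id3 call held without GP day 3 prep 3 and in no other of 6 such fits, and that of Myl9 was lost without any of the 3 GP day 3 arrays. In treated cultures between those days 2 passed, or 2.02%, against 1.51% of all probe sets: Id4 fell by 1.24 ± 0.23 on the log2 scale (0.0301, and 0.236 without the block) and Vcl, the gene of the adhesion protein vinculin, rose by 0.81 ± 0.16 (0.0416, and 0.387 without the block). Of 6 such fits each, the Id4 call held in the 1 without treated day 3 prep 1 and the Vcl call in the 1 without treated day 1 prep 3. From medium to GP at day 1 limma called 0 of the 99, with 8 at an unadjusted p under 0.05, against 0.306% of all probe sets called.

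**Figure D5:**
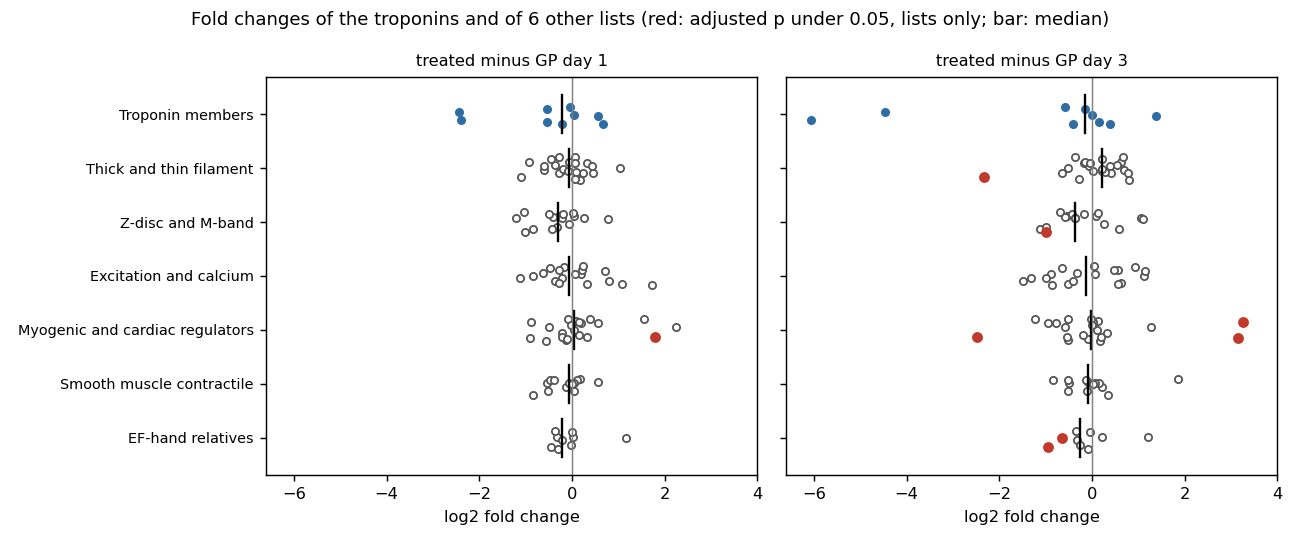
Log2 fold changes, treated minus GP, at day 1 and day 3 for the 9 troponin probe sets (blue) and the genes of 6 other lists (open circles, red where the limma adjusted p was under 0.05), with a bar at each median. The 2 leftmost points in both panels are Tnnc1 and Tnnt1 161361_s_at, and the medians of the 6 lists lie between -0.36 and 0.22.

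Summed levels of muscle cell markers overlapped between treated and GP cultures. Of 14 skeletal muscle markers 13 were on the array and 4 had a mean signal past the filter. The summed intensity of the 13 was 186 to 236 in treated cultures and 209 to 216 in GP cultures at day 3, and 195 to 274 in treated cultures and 161 to 239 in GP cultures at day 1. Myf5, a myogenic regulator gene, was at the floor on 12 of 15 arrays, Acta1, skeletal actin, averaged 10.9 in treated and 8.07 in GP cultures at day 3, and Myod1 and Myog, myogenic regulators, averaged 45.3 and 42.6 in treated and 65.2 and 37.5 in GP cultures at day 3. Of 10 cardiac markers 9 were on the array and 3 had a mean past the filter, with sums of 540 to 999 in treated cultures and 555 to 1024 in GP cultures at day 3. The cardiac myosin gene Myh6 and the calcium release channel gene Ryr2 were at the floor on 10 of 15 arrays each. Of 6 smooth muscle markers all were on the array and 3 had a mean past the filter, with sums of 4845 to 5622 in treated cultures and 4232 to 5759 in GP cultures at day 3. The treated and GP ranges overlapped at day 3 in each of the 3 lists. Actc1 made up most of the cardiac sums, with day 3 means of 647 in treated and 685 in GP cultures. Acta2 and Tagln made up most of the smooth muscle sums, with means of 3454 and 1492 in treated cultures at day 3. The skeletal sums came mostly from Myod1, Myog, Ckm and Chrng. At day 3 single skeletal markers went both ways: Chrng averaged 10.6 in treated and 27.8 in GP cultures, and Des 19.4 and 9.0. Overlap of the skeletal, cardiac and smooth muscle sums thus says little about their dimmer markers. Of 13 osteoblast genes 8 were on the array, all 8 past the filter, and their sums were 23000 to 27570 in treated cultures and 16600 to 22970 in GP cultures at day 3, apart by the narrow gap between 23000 and 22970. Col1a1, Col1a2 and Sparc made up most of these sums, which thus say little about the dimmer osteoblast genes. Alpl averaged 630.4 in treated and 24.97 in GP cultures at day 3, and Tnfrsf11b 422.9 and 101.8. Pth1r averaged 202.7 in treated and 6.433 in GP cultures at day 3, and Ibsp 86.6 and 7.133. Cdh11, an osteoblast cadherin gene, went the other way, with a mean of 160 in treated cultures and 378 in GP cultures at day 3. At day 1 the sums averaged 20830 in treated and 20910 in GP cultures. The part of these osteoblast gene differences in the troponin signals was not tested. In RNA from whole cultures, fewer cells with a transcript and less of it per cell cannot be told apart.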

How the data were processed

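Each array's deposited column held linear intensities for 12488 probe sets. The software that made them is not given in the sources used here. The trimmed mean was 150.1 on each array, so the authors had brought the arrays to a common level. The 66 control probe sets were not tested. Values under 2.8, the 10th percentile, were set to it, and log2 was taken. Gene names came from the platform annotation, for 10833 probe sets with 1 symbol (396 had several and 1193 none). Entrez identifiers of all 7 genes matched the RefSeq table of GRCm38.p6.

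All 15 arrays entered a limma 3.58.1 fit in R 4.3.3 (lmFit, eBayes with a mean trend). Its terms were group and prep, with 8 residual degrees of freedom. The same fit was run on simulated arrays with known changes in treated cultures at day 1, in probe sets past the signal filter. That run did not cover changes in probe sets near the floor. P-values were adjusted with Benjamini-Hochberg over 12422 probe sets and called at 0.05. Errors of log2 differences are standard errors of the fit to the 15 arrays. The prep is a block because each prep number occurs once in each group; deviations from group means correlated at 0.188 to 0.708 between arrays of 1 prep number in 30 pairs, and at -0.573 to 0.261 otherwise. The number of arrays limits the precision.

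The members and the 6 lists were chosen with earlier results of these data known. Named from the lists were up to 4 called genes each, by smallest p; for genes with several probe sets the brightest was used. Likeness to Tnnc1 was ranked over named probe sets past the signal filter of 25.4. Alternatives were no block, the filter, floors at the 25th and 60th percentiles, quantile and median scaling, no trend, array weights, 2-group fits, and leaving out preps or arrays.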

Additional observations from a re-analysis of the deposited data

Results flagged for a closer look

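Between day 1 and day 3 Tnnc1 moved in opposite directions in the cultures: its log2 difference was -1.28 over the preps in treated cultures, lower in 3 of 3 preps, and 2.39 in GP cultures, higher in 3 of 3 preps. The difference between these effects was not tested, because it holds the same arrays for which Tnnc1 was chosen. The treated values lay near the floor of 2.8 at day 3, and without prep 2 the treated difference was -0.40.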

How the results depend on the processing

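All alternatives were planned. The counts of called probe sets over the whole array were 230 for treated against GP at day 1, 834 at day 3, 38 for GP day 1 against medium, 90 for GP day 3 against day 1 and 188 for treated day 3 against day 1. In that order they were 63, 242, 14, 37 and 13 with no replicate block, 112, 447, 18, 43 and 71 with the 60th percentile as the floor, and 0 each in 2-group fits with 2 residual degrees of freedom, where limma had 1741, 1971, 982, 1268 and 1160 at an unadjusted p under 0.05. The signal filter gave 371 for treated against GP at day 1, 138 for GP day 3 against day 1 and 295 for treated day 3 against day 1. Without the mean trend treated against GP at day 1 gave 115, GP day 1 against medium 23 and treated day 3 against day 1 gave 88. Array weights gave 433 for treated against GP at day 1 and 186 for GP day 3 against day 1, and median scaling gave 21 for GP day 1 against medium. Without 1 array the ranges were 60 to 127, 366 to 687, 6 to 34, 42 to 76 and 35 to 147, and without a whole prep 0 to 65, 6 to 420, 0 to 0, 0 to 42 and 0 to 64.

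Called troponin probe sets numbered 1, 2, 0, 1 and 0 in the same order. Nothing is read from the counts of comparisons with day 3 arrays, which entered the difference for which the family was chosen. At day 1 the count was 2 with the signal filter, the floor at the 25th percentile, quantile normalization, median scaling and array weights, where Tnnc1 joined Tnnt1, and 0 with the floor at 78.9 and in the 2-group fit. At day 3 it was 0 in the 2-group fit and 1 to 2 without a prep. For GP day 3 against day 1 it was 2 with the signal filter, the floor at the 25th percentile and array weights, and 0 with no replicate block, the floor at 78.9 and the 2-group fit. Without 1 array it was 1 to 2, 2 to 2, 0 to 0, 0 to 0 and 0 to 0, and without a whole prep 0 in all comparisons but treated against GP at day 3. The fold changes followed through these fits, those of Tnnc1 in all 5 comparisons, of Tnnt1 161361_s_at where it was called and of the called genes of the lists, did not turn sign in any. The other troponin probe sets were not followed in this way. The cause of the changes was not tested, save that fewer samples entered the fits without arrays. The prep block is the paired analysis, and the values without it stand beside each p-value whose call it changed. For Tnnt1 161361_s_at in GP cultures over time, described with no test, only the loss of the count is given.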
